A study of Mus musculus with 28 samples.

Results

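The comparison set mouse embryonic stem (ES) cells that had lost their self-renewal medium for 48 h and regained it for 24 h against cells from which it had never been withdrawn. It asks which transcripts had not returned to their starting level 24 h after the medium was given back. The members were chosen by the sample titles alone: 4 libraries of re-induced cells and 4 of never withdrawn cells, 8 of the 28 libraries of the series. The cells are E14, an established mouse ES cell line, grown on gelatin in the serum-free medium N2B27. The additive called 2iL holds 3 µM CHIR99021, an inhibitor of the kinase GSK3, 1 µM PD0325901, an inhibitor of the kinase MEK, and the cytokine LIF. Per the labels, cells were plated as single cells in 2iL and 2iL was taken away on the following day. The group called 2iL here was never withdrawn, the group 48 h was collected after 48 h in N2B27 alone, and the group 48 h + 2iL was given 2iL for a further 24 h after those 48 h. The group 96 h + 2iL had 96 h without 2iL and then 24 h with it. Each group has 4 libraries, 1 from each of experiments 1 to 4, the number carried by the titles. Beyond this number the labels give nothing that sets replicates apart, so p-values measure the spread between these samples, which may be technical. They do not say at what time the 2iL cells were collected, and a group kept in 2iL for the matching time was not analysed here. Time in culture since plating and the withdrawal with its reversal therefore cannot be told apart. Cells of 48 h + 2iL were also collected 24 h later than those of 48 h. Between these groups, the return of 2iL and the added time cannot be told apart either.

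In 2iL, GSK3 inhibition stabilises beta-catenin and relieves repression by the factor TCF7L1, MEK inhibition blocks the FGF and ERK signal that starts differentiation, and LIF activates STAT3. Together they hold ES cells in the naive state, which resembles the epiblast before implantation and has low DNA methylation. When 2iL is withdrawn, naive factors such as Nanog, Esrrb and Tfcp2l1 decline and genes of the formative epiblast, among them Otx2, Pou3f1 and the de novo DNA methyltransferases, come on. The cells are at first able to return when 2iL is given back, and later commit to lineages.

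The 2iL libraries held 1748315 to 2828694 gene counts and the 48 h + 2iL libraries 2043207 to 2419846, and 13453 to 14004 genes had at least 1 count in these 8 libraries. Values are CPM, the usual counts scaled to library size, with library sizes scaled by TMM (trimmed mean of M values). A gene with 0 counts in 1 library can still have been present at up to 1.06 to 1.72 CPM, from 3 counts of that library's total, and such limits cover counting error only. Alignments at more than 1 place, 54.7% to 57.0% of the reads listed for these libraries, were not counted, so genes with near-identical copies are uncertain. Transcripts of the mitochondrial genome were 2.37% ± 0.27 (SD, n = 4) of gene counts in 2iL and 2.02% ± 0.22 (SD, n = 4) in 48 h + 2iL, two-sided exact permutation p = 0.114 where the smallest possible is 0.0286. Without experiment 3 of 48 h + 2iL this p was 0.0286, the smallest possible there too. The permutation ignored the experiment number, so neither p uses the pairing of libraries by experiment. Within every experiment the share was lower in 48 h + 2iL than in 2iL. Experiment 3 had the highest share in both groups. Summed levels of 16 fibroblast (feeder) genes were 489 to 876 CPM in 2iL and 429 to 603 CPM in 48 h + 2iL, with 0 of 14 tested members called. Summed levels of 17 genes of the two-cell-like state, a rare state of ES cell cultures, were 0.859 to 25 CPM in 2iL and 0 to 3.26 CPM in 48 h + 2iL. In bulk RNA, fewer cells expressing a gene and less RNA per cell cannot be told apart.

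Of 11080 genes tested, 1616 (14.6%) differed between 48 h + 2iL and 2iL at an adjusted p under 0.05, called here (edgeR's quasi-likelihood test with experiment as a block, Benjamini-Hochberg adjustment). Higher in the re-induced cells were 860 genes (7.76%), and lower were 756 (6.82%). The difference was at least 2-fold for 431 of the higher and 377 of the lower genes, and at least 4-fold for 178 and 130. In 1531 of the 1616 genes the direction was the same in all 4 experiments. The 4 libraries of one group lay wholly above or below the other 4 for 1210 of the called genes and for 16.8% of all genes tested. Of the 9464 genes not called, 5957 had a 95% interval of the difference within 2-fold either way, and the others could differ by more than that. Without experiment 3 of 48 h + 2iL, the counts were 571 higher and 532 lower.

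**Figure D1:**
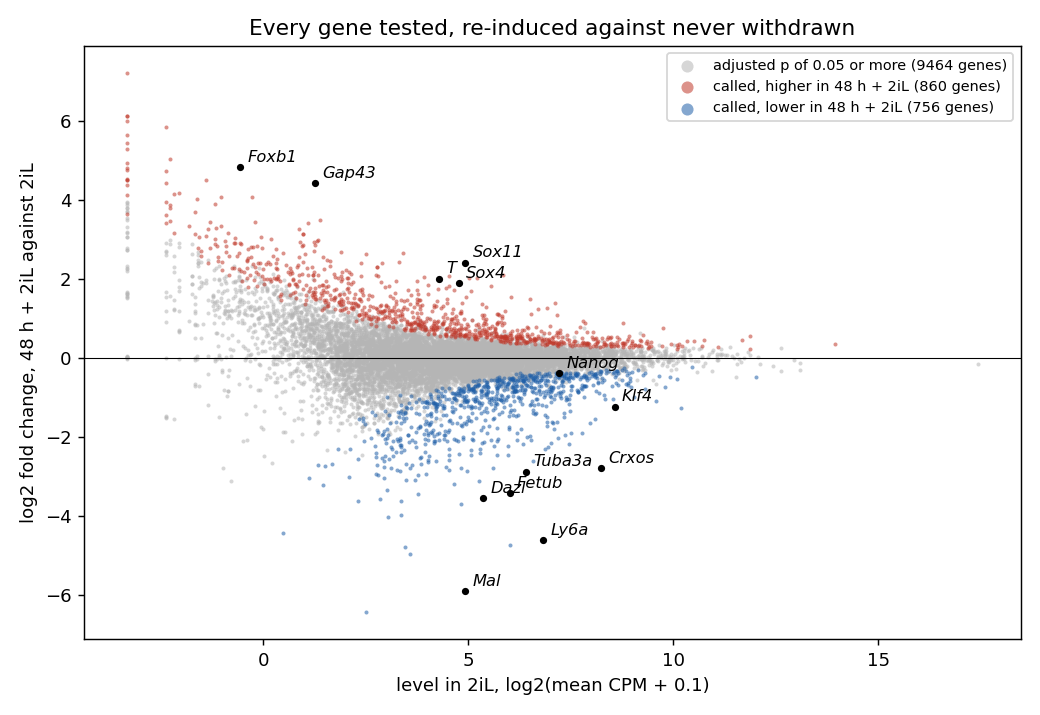
Log2 fold change of 48 h + 2iL against 2iL (vertical axis) for each of the 11080 genes tested, against its level in 2iL as log2 of mean CPM + 0.1 (horizontal axis). Red points are the 860 genes called higher, blue points the 756 called lower and grey points the rest. Black points mark genes described in the text: Gap43 and Foxb1 lie far above 0 at low 2iL levels, Ly6a, Mal and Dazl far below 0, and Nanog among the genes not called. At the left edge are genes with 0 or very few counts in 2iL, whose fitted changes depend on the prior count.

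Gap43 stayed above its 2iL level after the return, and Ly6a and Dazl stayed below theirs. Gap43 (ENSMUSG00000047261, chromosome 16, 42248442 to 42340651, GRCm38), a membrane-bound protein of axonal growth cones, was at 1.93, 3.86, 0 and 3.41 CPM in experiments 1 to 4 of 2iL and at 58.1, 37.4, 49.9 and 44.7 CPM in those of 48 h + 2iL. Every re-induced library was far above every 2iL library, and the log2 fold change was 4.42 ± 0.45 (SE), adjusted p = 1.52e-08. After 48 h without 2iL the level was 76.9 ± 14.8 CPM (SD, n = 4), and the change on giving 2iL back was -0.71 (adjusted p = 0.0881), so the level before and after the return did not differ at this threshold.

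Ly6a (ENSMUSG00000075602, chromosome 15, 74994877 to 74998031) encodes the surface antigen Sca-1. Its levels were 154, 132, 85.7 and 81.8 CPM in 2iL and 3.54, 5.89, 6.65 and 1.40 CPM in 48 h + 2iL. The groups are well apart, and the log2 fold change was -4.61 ± 0.33 (SE), adjusted p = 1.54e-11. At 48 h the mean had been 7.39 ± 2.90 CPM (SD, n = 4), and the change from there to 48 h + 2iL was -0.69 (adjusted p = 0.276). Dazl (ENSMUSG00000010592, chromosome 17, 50279395 to 50293636), an RNA-binding protein of germ cells, stood at 29.0, 21.9, 53.4 and 60.2 CPM in 2iL and at 4.55, 0.841, 4.16 and 4.19 CPM in 48 h + 2iL. Its log2 fold change was -3.55 ± 0.40 (SE), adjusted p = 1.08e-07, with no overlap between the groups. Its 48 h mean was 6.94 ± 3.24 CPM (SD, n = 4), and the change on return, -1.04, did not pass the test (adjusted p = 0.125).

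The 15 largest rises among genes that average 10 CPM or more in re-induced cells, without overlap between the groups, fall into genes still high from the withdrawal and genes that were higher than in either earlier state. To the first kind belong Crmp1, a collapsin response protein of growing axons, and Esrp1, a splicing regulator of epithelial cells. Crmp1 was at 1.14 to 2.58 CPM in 2iL, 38.4 ± 11.6 CPM (SD, n = 4) at 48 h and 7.91 to 20.2 CPM after the return. It fell on return by 1.41 on the log2 scale (adjusted p = 0.000427) and remained above 2iL by 2.86 ± 0.41 (SE). Esrp1 followed the same course, from 0 to 4.35 CPM in 2iL through 52.6 ± 3.03 CPM (SD, n = 4) at 48 h to 15.6 to 24.8 CPM. Vrtn, a gene linked to vertebral number, was at 9.10, 8.41, 47.0 and 12.6 CPM in experiments 1 to 4 of 48 h + 2iL against 0.751 to 2.90 CPM in 2iL, and experiment 3 stands apart from the other 3. Tmem145, Aif1l, Zfp423 and Ephb2, the last a receptor for ephrin-B ligands, had 48 h means of 12.9, 15.6, 13.9 and 9.52 CPM and re-induced means of 13.9, 17.4, 16.1 and 14.2 CPM. None of these 4 changed on return at an adjusted p under 0.05, and their 2iL means were 0.732 to 2.31 CPM.

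The second kind was higher in cells given 2iL back than in cells at 48 h. Between 48 h + 2iL and 48 h, 17.5% of all genes were called, 8.38% higher and 9.13% lower. Foxb1, a forkhead transcription factor of the neural tube and hypothalamus, was at 0, 0.429, 0.751 and 1.14 CPM in 2iL and at 0.865 ± 0.414 CPM (SD, n = 4) at 48 h. In 48 h + 2iL it was at 9.10, 10.5, 37.0 and 14.4 CPM, above all 2iL libraries, with experiment 3 the highest. The log2 fold change was 4.82 ± 0.82 (SE) against 2iL and 4.22 against 48 h (adjusted p = 8.12e-05 and 0.000216). Greb1, first described as an oestrogen-regulated gene, was at 0 to 3.86 CPM in 2iL and at 5.56, 9.67, 32.0 and 30.7 CPM after the return, with experiments 3 and 4 about equal and above the other 2. Frem2 (an extracellular matrix protein), Pllp (plasmolipin, a membrane protein of myelin and epithelia), Fam171a1 and Hs6st2 (a heparan sulfate sulfotransferase) were also called higher than at 48 h, by 2.06, 2.85, 1.59 and 1.10 on the log2 scale. Their changes against 2iL were 2.94, 2.93, 3.14 and 3.13.

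**Figure D2:**
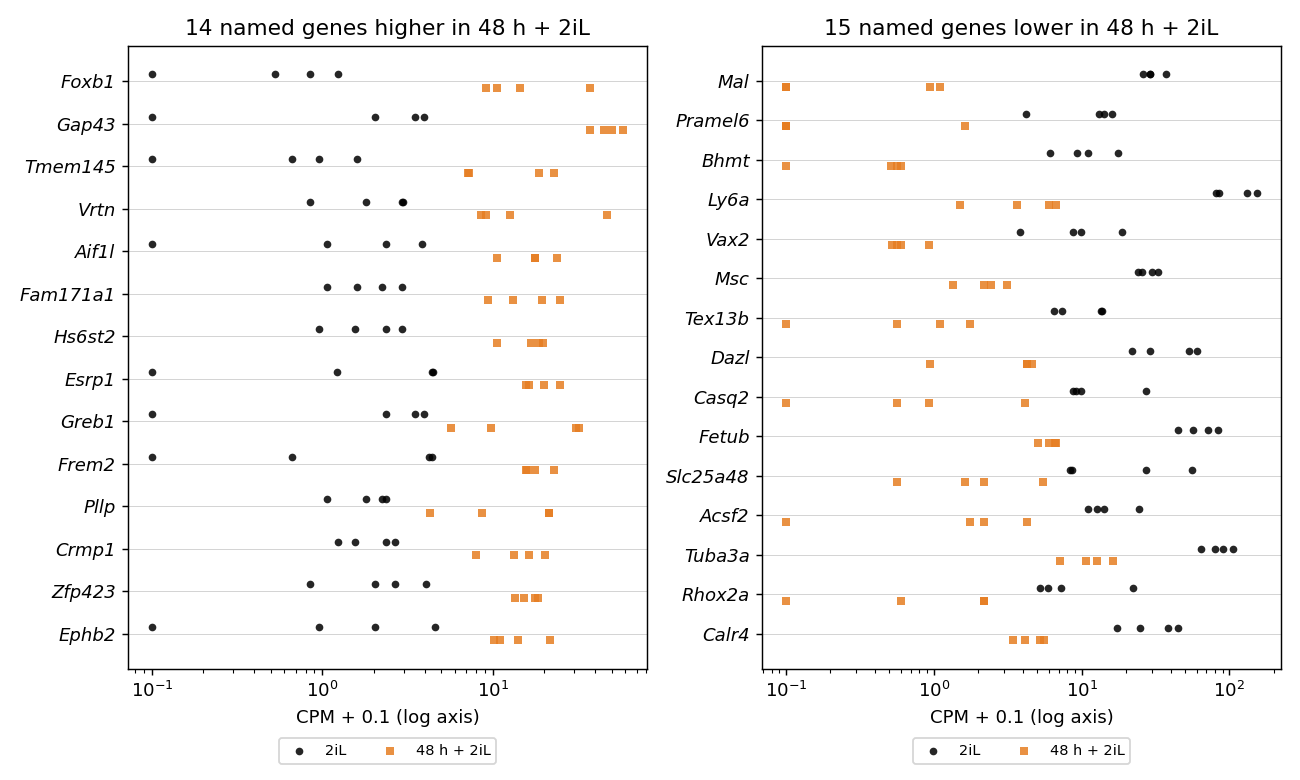
Level of the named genes with the largest rises (left) and the largest falls (right) in each library, as CPM + 0.1 on a log axis. Black circles are the 4 libraries of 2iL and orange squares the 4 of 48 h + 2iL. By the rule that chose them, the groups do not overlap for any gene shown. Mal and Pramel6 have libraries at 0 CPM after the return.

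The 15 largest falls include genes that were already low at 48 h. Mal, a proteolipid of membrane rafts, was at 29.0, 37.3, 25.9 and 29.0 CPM in 2iL, at 0 in all 4 libraries at 48 h, and at 1.01, 0.841, 0 and 0 CPM in 48 h + 2iL. Its log2 fold change was -5.90 ± 0.73 (SE), adjusted p = 8.34e-07, and the 4 re-induced libraries are all far below the 2iL range. Pramel6, a member of a gene family expressed in early embryos whose close copies make its count uncertain, had 100 counts in 2iL and 3 in 48 h + 2iL, all 3 in experiment 1. The ratio of its pooled levels was 33.7 (exact 95% interval 11.2 to 166), and DESeq2's test gave an adjusted p of 0.14. This interval, like the other exact intervals below, covers counting error only and not the spread between libraries. Bhmt, a liver-type enzyme of methionine metabolism, had 93 and 3 counts, a ratio of 31.3 (10.4 to 155). Msc, a basic helix-loop-helix repressor, was at 23.8 to 33.1 CPM in 2iL and 1.25 to 3.03 CPM after the return. Vax2, a homeobox factor of the ventral eye, was at 3.76 to 18.7 CPM in 2iL and 0.421 to 0.831 CPM after the return.

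Fetub and Tuba3a were lower after the return than before it. Fetub, a fetuin family protease inhibitor, was at 44.9, 57.1, 84.2 and 71.5 CPM in 2iL, at 12.6 ± 2.17 CPM (SD, n = 4) at 48 h and at 6.57, 5.89, 4.99 and 6.52 CPM in 48 h + 2iL. The log2 fold change was -3.42 ± 0.32 (SE) against 2iL (adjusted p = 1.79e-09) and -1.08 against 48 h (adjusted p = 0.027). The re-induced libraries are tightly grouped and lie well below every 2iL library. The remaining named falls ranged from -3.62 for Tex13b, a testis-expressed gene, to -2.86 for Calr4, a calreticulin-like gene, on the log2 scale. They include Acsf2, an acyl-CoA synthetase (-2.94), and Casq2, a calcium-binding protein of muscle (-3.45), whose 2iL level of 27 CPM in experiment 2 stands above 8.70 to 9.77 CPM in the others. Slc25a48, a mitochondrial carrier (-3.20), had an adjusted p of 0.0547 by DESeq2. Rhox2a, a homeobox gene of the X-linked Rhox cluster with close copies (-2.87), had an adjusted p of 0.0503 and a log2 fold change of -2.21 without experiment 4 of 48 h + 2iL.

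**Figure D3:**
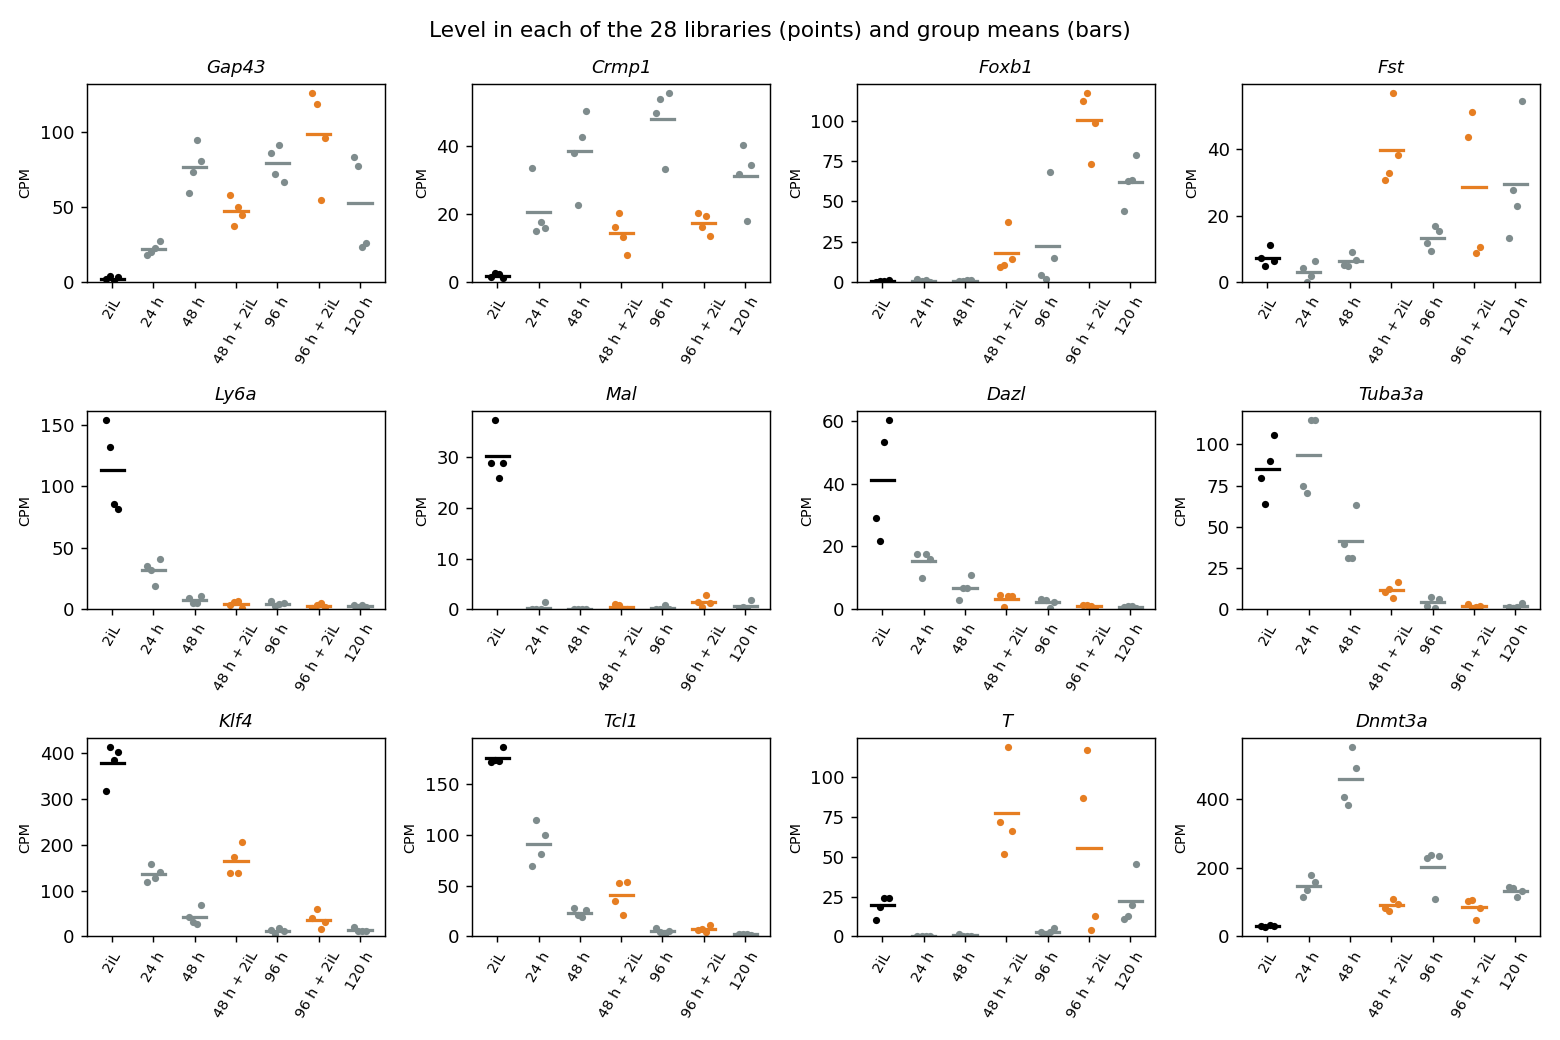
CPM in each of the 28 libraries (points) and the group means (bars) for 12 genes, with the 7 groups along the horizontal axis; black is 2iL, grey the withdrawn cells and orange the cells given 2iL for 24 h. Gap43, Crmp1 and Dnmt3a remain above 2iL after the return, Ly6a, Mal and Dazl remain near 0, Tuba3a is lower in 48 h + 2iL than at 48 h, Klf4 and Tcl1 are part of the way back, and Foxb1, Fst and T exceed both 2iL and 48 h.

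The naive pluripotency list held factors whose libraries overlapped those of 2iL and factors whose libraries did not. Its summed level was 4154 to 4842 CPM in 2iL and 3035 to 3336 CPM in 48 h + 2iL, ranges that do not overlap. For 10 of the 22 members the libraries of the 2 groups did not overlap, in either direction, against 16.8% of all genes tested. All 22 members passed the filter on low counts, and 1 was called higher and 5 lower. The list median was -0.46 on the log2 scale against 0.02 for all genes tested. Over all genes tested 7.76% were called higher and 6.82% lower. The count of each list or family below is to be read beside these shares. With only the 8 libraries in the fit, 2 members were called higher and 10 lower. Nanog, the transcription factor, was at 156, 140, 121 and 175 CPM in 2iL and at 133, 149, 76.1 and 104 CPM in 48 h + 2iL, having been at 13.1 ± 6.19 CPM (SD, n = 4) at 48 h. The groups overlap, and the difference of -0.38 (95% interval -0.91 to 0.14) did not pass the test. Esrrb, an orphan nuclear receptor, and Zfp42 (Rex1), a zinc finger marker of the state, likewise overlapped, at -0.26 (-0.75 to 0.22) and -0.25 (-0.76 to 0.27). Tfcp2l1, a STAT3-responsive factor, had recovered from 18.3 ± 5.31 to 373 ± 25.3 CPM, against 550 ± 68.4 CPM in 2iL (SD, n = 4 each). Its 4 re-induced libraries lay below all 2iL libraries, yet the difference of -0.57 (-1.02 to -0.11) missed the threshold (adjusted p = 0.0855). Klf2, at 0.44 (-0.09 to 0.96), was not called. With only the 8 libraries in the fit, Nanog, Tfcp2l1 and Klf2 were called, at adjusted p of 0.049, 0.00011 and 0.0012.

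The 5 lower members were Crxos, Tcl1, Tbx3, Klf4 and Fgf4. Crxos, a homeobox gene of early embryos, was at 264, 370, 272 and 294 CPM in 2iL and at 43.0, 66.4, 22.4 and 51.2 CPM after the return. That is a log2 fold change of -2.79 ± 0.24 (SE), adjusted p = 3.64e-10, although the level had risen from 7.66 ± 6.13 CPM (SD, n = 4) at 48 h. Tcl1, an AKT co-activator, was at 172, 173, 173 and 186 CPM in 2iL and at 34.9, 52.6, 21.6 and 53.5 CPM in 48 h + 2iL (-2.16 ± 0.19). Klf4, a Krüppel-like factor induced by STAT3, was at 317, 413, 385 and 404 CPM in 2iL and at 138, 172, 138 and 207 CPM after the return (-1.23 ± 0.21). Both had clearly separate groups. Tbx3, a T-box factor, differed by -1.50 ± 0.24. Fgf4, the FGF ligand made by ES cells, was at 112 to 129 CPM in 2iL and 52.4 to 106 CPM after the return, adjusted p = 0.0483; the adjusted p was 0.0587 to 0.208 without each of experiments 1, 3 and 4 of either group and 0.169 without the block. The higher member, Gbx2, a homeobox gene that LIF and STAT3 activate, was at 6.87 to 17.4 CPM in 2iL, 3.86 ± 2.38 CPM (SD, n = 4) at 48 h and 20.6 to 38.2 CPM after the return, a difference of 1.45 ± 0.31.

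Among targets of LIF and STAT3, 7 of the 17 members that passed the filter (18 in the list) were called lower, 1 was higher (Gbx2) and 9 were not called, with a median of -0.65. The lowest change in the list, -2.34, is also the lowest in the immediate stress response list below, so the counts of these lists are not independent. Leaving out 1 library gave 4 to 8 lower; it was 4 without experiment 2 or 3 of 2iL and without experiment 1 of 48 h + 2iL, and 11 with only the 8 libraries in the fit. Pim1, a kinase, was at 110, 124, 124 and 149 CPM in 2iL and at 52.1, 85.4, 56.9 and 66.1 CPM after the return, a difference of -0.97 ± 0.20. Sbno2, a transcriptional co-regulator induced by STAT3, was at 38.0 to 48.9 and 13.5 to 29.3 CPM (-0.999 ± 0.226). Neither pair of groups overlapped. Lifr, a subunit of the LIF receptor, was at 61.8, 68.3, 102 and 51.7 CPM in 2iL and at 36.4 to 47.0 CPM after the return (-0.78 ± 0.21); without experiment 3 of 2iL, the highest library, the adjusted p was 0.118 at -0.51.

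Of the formative and primed epiblast list, 10 of 21 members were higher and 1 lower, with a median of 1.02; 7 were higher without experiment 3 of 48 h + 2iL. The members with the largest response at 48 h had gone back. Otx2, which directs the exit from the naive state, was at 345 ± 47.5 CPM (SD, n = 4) at 48 h and at 7.58, 7.15, 8.73 and 6.98 CPM after the return, against 8.52 to 21 CPM in 2iL. Pou3f1 (Oct6) fell from 435 ± 69.8 CPM (SD, n = 4) to 5.12 to 14.2 CPM, against 3.86 to 7.95 CPM in 2iL. Neither was called against 2iL, at -0.85 (95% interval -1.93 to 0.23) and 0.49 (-0.95 to 1.93), intervals wide enough to hold a 2-fold difference.

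Members still above 2iL include regulators of several kinds. Sox3, a SoxB1 transcription factor, was at 0, 1.72, 3.38 and 3.97 CPM in 2iL, 48.3 ± 11 CPM (SD, n = 4) at 48 h and 14.7, 8.41, 19 and 17.7 CPM in 48 h + 2iL, a difference of 2.71 ± 0.35 (adjusted p = 8.68e-07). Lin28b and Lin28a, which block maturation of let-7 microRNAs and of which Lin28a belongs to the general pluripotency list, were higher by 1.96 ± 0.31 and 1.25 ± 0.16. Lin28a was at 133, 88.0, 119 and 76.7 CPM in 2iL and at 218, 164, 327 and 298 CPM after the return. Fst, follistatin, which binds activin, was at 4.72 to 11.3 CPM in 2iL, 6.51 ± 1.94 CPM (SD, n = 4) at 48 h and 30.8, 32.8, 56.9 and 38.2 CPM after the return. It was thus also higher than at 48 h (2.61, adjusted p = 0.000224). Car14, a carbonic anhydrase, had 3 counts in 2iL and 53 after the return, a ratio of 17.5 (exact 95% interval 5.67 to 87.5). Cldn6, a tight junction protein, was higher by 2.03 ± 0.56; without experiment 3 of 48 h + 2iL the difference was 1.42 with an adjusted p of 0.107. The lower member was Etv4, an ETS factor that ERK induces: 63.8, 51.1, 25.5 and 66.4 CPM in 2iL, 77.7 ± 30.2 CPM (SD, n = 4) at 48 h, and 10.6, 16.8, 6.65 and 25.6 CPM after the return.

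Of 13 members of the DNA methylation machinery 11 passed the filter, 4 were higher, 2 lower and 5 not called, with a median of 0.11. Leaving out 1 library gave 3 to 5 higher and 0 to 2 lower; 0 were lower without experiment 4 of 2iL or experiment 3 or 4 of 48 h + 2iL, and 1 without experiment 1 of either group or without the block. Dnmt3a, a de novo methyltransferase, was at 30.9, 27.5, 33.1 and 31.8 CPM in 2iL and at 84.4, 73.2, 110 and 94.0 CPM after the return, having been at 459 ± 78.0 CPM (SD, n = 4) at 48 h. All re-induced libraries lay above all 2iL libraries, at 1.55 ± 0.22 (adjusted p = 7.42e-06). Dnmt3b, its paralogue, was at 67.0 to 111 CPM in 2iL and 157 to 231 CPM after the return (1.12 ± 0.30, and 0.90 with an adjusted p of 0.0723 without experiment 3 of 48 h + 2iL). Dnmt3l, their cofactor, was at 78.3, 49.4, 13.2 and 13.1 CPM in 2iL and at 70.3, 73.2, 42.0 and 47.9 CPM after the return. The 2iL libraries of experiments 3 and 4 were low, those of experiments 1 and 2 overlapped the re-induced range, and the difference of 0.73 was not called (adjusted p = 0.0551); without experiment 1 of 2iL it was 1.17 and called (adjusted p = 0.0027). Dnmt1, the maintenance enzyme, did not pass the test, at 258 ± 44.3 against 258 ± 16.4 CPM (SD, n = 4 each; 95% interval -0.18 to 0.20). Uhrf1, which brings Dnmt1 to replicated DNA, was at 181 to 296 CPM in 2iL and 146 to 195 CPM after the return, overlapping groups with a difference of -0.46 (adjusted p = 0.0354). Without experiment 1 of 2iL it was -0.26 (adjusted p = 0.28), and the call was also lost, at adjusted p of 0.0546 to 0.122, without experiment 4 of 2iL or experiment 1, 3 or 4 of 48 h + 2iL.

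Uhrf2, a relative of Uhrf1, had not been raised at 48 h (15.6 ± 4.17 CPM, SD, n = 4) and was at 46.5, 42.9, 72.7 and 42.8 CPM after the return, against 12.6, 12.9, 35.3 and 14.2 CPM in 2iL. In both groups experiment 3 was the highest library, and the difference was 1.45 ± 0.27 (adjusted p = 0.000237). Tet3, a dioxygenase that oxidises methylcytosine, was at 2.84 to 6.87 CPM in 2iL and 6.07 to 21.2 CPM after the return (1.73 ± 0.37). Tet2, of the same enzyme family, was the other lower member, at 43.5, 30.9, 24.0 and 48.8 CPM in 2iL and 26.3, 23.6, 7.07 and 14.4 CPM after the return. The groups overlap, and the difference of -1.06 ± 0.32 (adjusted p = 0.0205) was not called without experiment 4 of 2iL, experiment 3 or 4 of 48 h + 2iL or the block (adjusted p of 0.0536 to 0.108).

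Some germline genes that promoter DNA methylation represses in somatic cells were lower. Of 28 members 14 passed the filter; 7 were called lower and 0 higher, with a median of -1.0, and leaving out 1 library gave 5 to 7 lower and 0 higher. The other 7 were not called, and changes of the 14 ranged from -3.55 to 2.16 on the log2 scale. The summed level of the list was 480 to 596 CPM in 2iL and 193 to 282 CPM in 48 h + 2iL, ranges that do not overlap. Rpl10l and Tuba3a, whose counts are uncertain because of close copies, made up much of this sum and of its fall. No DNA methylation was measured in these libraries. The promoters of Dazl, Tuba3a and Rpl10l are shown as 3 members that fell and whose promoters differ in CG content. They are RefSeq windows of 300 bases on GRCm38.p6, from 250 bases before to 50 after the transcription start, 5′ to 3′ on the strand of the gene, with CG pairs in capitals.

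Dazl (chr17:50293571-50293870, minus strand): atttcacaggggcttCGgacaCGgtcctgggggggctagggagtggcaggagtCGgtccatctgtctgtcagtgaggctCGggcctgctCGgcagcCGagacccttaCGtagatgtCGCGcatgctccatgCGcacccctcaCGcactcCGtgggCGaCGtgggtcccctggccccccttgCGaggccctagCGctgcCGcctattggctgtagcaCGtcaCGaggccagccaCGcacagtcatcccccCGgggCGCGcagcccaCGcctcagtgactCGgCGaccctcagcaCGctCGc
Tuba3a (chr6:125286032-125286331, minus strand): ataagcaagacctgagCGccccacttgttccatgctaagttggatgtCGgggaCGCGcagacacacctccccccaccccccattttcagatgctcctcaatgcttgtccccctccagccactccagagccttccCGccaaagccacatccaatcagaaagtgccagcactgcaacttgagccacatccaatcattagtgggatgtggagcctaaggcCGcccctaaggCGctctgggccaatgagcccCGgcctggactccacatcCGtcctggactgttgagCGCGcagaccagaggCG
Rpl10l (chr12:66284352-66284651, minus strand): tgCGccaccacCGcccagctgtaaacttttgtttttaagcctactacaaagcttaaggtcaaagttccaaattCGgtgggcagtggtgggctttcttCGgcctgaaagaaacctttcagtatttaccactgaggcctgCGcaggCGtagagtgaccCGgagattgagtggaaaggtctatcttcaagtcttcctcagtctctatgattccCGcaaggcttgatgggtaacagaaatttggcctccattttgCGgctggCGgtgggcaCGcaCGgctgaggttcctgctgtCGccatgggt
They hold 28, 12 and 13 CG pairs, against a median of 7 over all 32851 such windows and of 19.5 over the 32 windows of the list. The letters TTCCCGC or, on the other strand, GCGGGAA, which the repressor E2F6 can bind, are in the windows of Tuba3a and Rpl10l. They are in 8 of the 27 members with a window, against 4.60% of all windows, and in 3 of the 7 that fell. These 3 are Rpl10l, Tuba3a and its close copy Tuba3b. The E-box CACGTG, which reads the same on both strands, is in 11 of the 27 members, against 7.15% of all windows, and in 0 of the 7 that fell. A member was counted if any of its windows matched, while the shares of all windows are per window, so these are unlike measures. The 27 members have 32 windows. Matches are a description of the letters in the window.

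Tuba3a, a testis tubulin whose count is uncertain because Tuba3b is a close copy, was at 79.7, 64.0, 90.2 and 106 CPM in 2iL, 41.2 ± 15.2 CPM (SD, n = 4) at 48 h and 10.6, 12.6, 7.07 and 16.3 CPM after the return. The difference from 2iL was -2.88 ± 0.27 (adjusted p = 2.80e-09), and it fell on return by 1.8 (adjusted p = 1.51e-05). Rpl10l, a testis ribosomal protein that is a retrocopy of Rpl10 and so also uncertain, was at 148, 165, 202 and 185 CPM in 2iL, 163 ± 49.3 CPM (SD, n = 4) at 48 h and 72.8, 72.8, 58.2 and 110 CPM after the return (-1.17 ± 0.23). The Rpl10l mean at 48 h lay within the 2iL range and above every library of 48 h + 2iL. Syce1, a synaptonemal complex protein, was at 26.2 to 42.0 CPM in 2iL, 26.6 ± 5.20 CPM (SD, n = 4) at 48 h and 13.1 to 16.3 CPM after the return (-1.25 ± 0.28). Tex19.1, which protects germ cells against retrotransposons, was at 144, 138, 105 and 122 CPM in 2iL, 158 ± 18 CPM (SD, n = 4) at 48 h and 75.3, 80.7, 50.7 and 81.5 CPM after the return (-0.83 ± 0.22; adjusted p = 0.0508 without the block).

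The 2 other lower members had few counts. Sohlh2, a germ cell helix-loop-helix factor, was at 4.35 to 8.59 CPM in 2iL and 1.26 to 2.53 CPM after the return (-1.81 ± 0.55); its adjusted p was 0.0694 to 0.0743 without experiment 2 or 3 of either group. Tuba3b was at 2.90 to 3.41 CPM in 2iL and 0 to 1.26 CPM after the return, adjusted p = 0.0422; that call was lost, at an adjusted p of 0.0596 to 0.127, without any 1 library other than experiment 2 of 48 h + 2iL. Not every germline gene moved this way: Sycp3, of the synaptonemal complex, was at 1.93 to 7.95 CPM in 2iL and 5.06 to 8.41 CPM after the return and was not called (0.72, 95% interval -0.45 to 1.90). Stk31, a kinase of germ cells, was at 10.1, 10.7, 9.77 and 3.97 CPM in 2iL and at 1.01, 11.4, 2.08 and 0.465 CPM after the return. Experiment 2 alone was at the 2iL level; the difference of -1.31 had an adjusted p of 0.129 with it and was -2.77 (adjusted p = 0.0043) without that re-induced library.

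Targets of WNT and beta-catenin signalling, the pathway that GSK3 inhibition switches on, were called higher for 7 of the 15 members that passed (20 in the list) and lower for 0, with a median of 1.01. Leaving out 1 library gave 5 to 7 higher. Negative-feedback targets of the pathway did not share a course: Axin2 and Sp5 were not called, and Nkd1 and Nkd2 were higher. Axin2 was at 42.5, 46.8, 70.6 and 38.6 CPM in 2iL and 31.3, 45.8, 86.4 and 67.0 CPM after the return, having been at 4.22 ± 1.14 CPM (SD, n = 4) at 48 h, and the difference of 0.18 (95% interval -0.33 to 0.68) was not called. Sp5, a repressor of other WNT targets, was at 99.5 to 141 CPM in 2iL and 130 to 229 CPM after the return (0.59, adjusted p = 0.265; called with only the 8 libraries in the fit, adjusted p = 0.00051). Nkd1, an antagonist of the pathway that it also induces, was at 2.42, 1.29, 3.38 and 1.70 CPM in 2iL and at 8.59, 7.15, 20.4 and 9.31 CPM after the return. The groups do not overlap, and it was higher by 2.31 ± 0.43 against 2iL (adjusted p = 0.00026) and by 2.79 against 48 h. Nkd2, its paralogue, had 2 counts in 2iL and 22 after the return, a ratio of 10.9 (exact 95% interval 2.68 to 95.5). Its groups do not overlap, but the adjusted p of 0.0176 became 0.051 to 0.0621 without experiment 2 or 4 of 2iL or experiment 4 of 48 h + 2iL. Wnt3, a ligand of the primitive streak, was at 1.45, 3.43, 4.13 and 5.68 CPM in 2iL and at 16.2, 22.7, 14.1 and 14.4 CPM after the return (2.19 ± 0.51). Sp8 was at 0 to 1.13 CPM in 2iL and 2.52 to 7.07 CPM after the return (3.34 ± 0.72). Lef1, the DNA-binding partner of beta-catenin, was at 36.2, 37.8, 81.5 and 71.5 CPM in 2iL and 76.3, 77.4, 185 and 140 CPM after the return. Its 2iL library of experiment 3 exceeds the re-induced libraries of experiments 1 and 2, while within every experiment the re-induced library is the higher (1.07 ± 0.19).

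Mesendoderm and posterior genes mark the primitive streak and tail end of the embryo. Of 23 in the list 11 passed, 6 were called higher and 1 lower, with a median of 1.41. A member could pass the filter through groups where it is high. Members with almost no counts in 2iL, such as Foxa2 and Fgf8, could hardly be called lower, so this count and median lean upward. Without experiment 3 of 48 h + 2iL only 2 were called higher, and DESeq2 called 3; 4 were higher without experiment 3 or 4 of 2iL, and 0 were lower without experiment 4 of either group or experiment 1 or 2 of 48 h + 2iL. The summed level was 62.3 to 107 CPM in 2iL and 145 to 308 CPM after the return. T (Brachyury), the T-box factor of the streak, was at 10.6, 18.5, 24.4 and 24.4 CPM in 2iL, 0.665 ± 0.650 CPM (SD, n = 4) at 48 h and 72.3, 51.7, 119 and 66.6 CPM after the return. Every re-induced library exceeded every 2iL library. The difference was 2.01 ± 0.53 (adjusted p = 0.00779), and 1.49 (adjusted p = 0.0956) without experiment 3 of 48 h + 2iL. DESeq2's test gave T an adjusted p of 0.0872. The promoter window of T, printed as above on GRCm38.p6 for a gene that WNT activates, has 1 match in capitals to the TCF and LEF core CTTTGA or, on the other strand, TCAAAG.
T (chr17:8434173-8434472, plus strand): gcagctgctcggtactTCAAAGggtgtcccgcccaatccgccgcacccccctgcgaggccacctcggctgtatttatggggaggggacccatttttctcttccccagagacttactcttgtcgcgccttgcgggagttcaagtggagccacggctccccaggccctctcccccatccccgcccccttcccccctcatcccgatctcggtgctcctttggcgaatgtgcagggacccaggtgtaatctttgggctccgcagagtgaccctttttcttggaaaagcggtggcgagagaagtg
These letters are in 16% of all windows, in 5 of the 13 WNT list members with a window and in 3 of the 7 called higher. Members were counted as for the germline list, by any window, which is unlike the share of windows. Cdx2, a caudal-type homeobox gene, was at 7.25, 12.4, 16.2 and 17.6 CPM in 2iL and at 11.1, 24.0, 68.2 and 46.5 CPM after the return (1.41, adjusted p = 0.0236). The increase was large in experiments 3 and 4 and small in experiment 1. Without experiment 3 of 48 h + 2iL it was 0.93 (adjusted p = 0.216). Without experiment 1, 3 or 4 of 2iL or experiment 4 of 48 h + 2iL the adjusted p was 0.0551 to 0.0721. By DESeq2's test it was 0.145. Hoxb1 was at 0.483, 4.72, 0 and 0 CPM in 2iL and at 4.04, 4.21, 12.5 and 19 CPM after the return, a difference of 2.66 that fell to 2.06 (adjusted p = 0.0588) and 1.88 (adjusted p = 0.0742) without experiment 3 or 4 of 2iL. DESeq2's test gave Hoxb1 an adjusted p of 0.101. Foxa2, a forkhead factor of endoderm and node, had 1 count in 2iL and 42 after the return, at 1.52, 1.26, 9.56 and 6.05 CPM, a ratio of 41.6 (exact 95% interval 7.07 to 1681); without experiment 3 the adjusted p was 0.0691. Fgf8, a ligand of the streak, had 2 and 24 counts, a ratio of 11.9 (2.95 to 104), with 7.07 CPM in experiment 3 and 0.465 to 1.68 CPM in the others. Its adjusted p was 0.065 without experiment 3 of 48 h + 2iL and 0.0861 without the block. Cdx1 was at 8.27 to 23.2 and 16.7 to 42.0 CPM and was not called (1.01, adjusted p = 0.102).

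**Figure D4:**
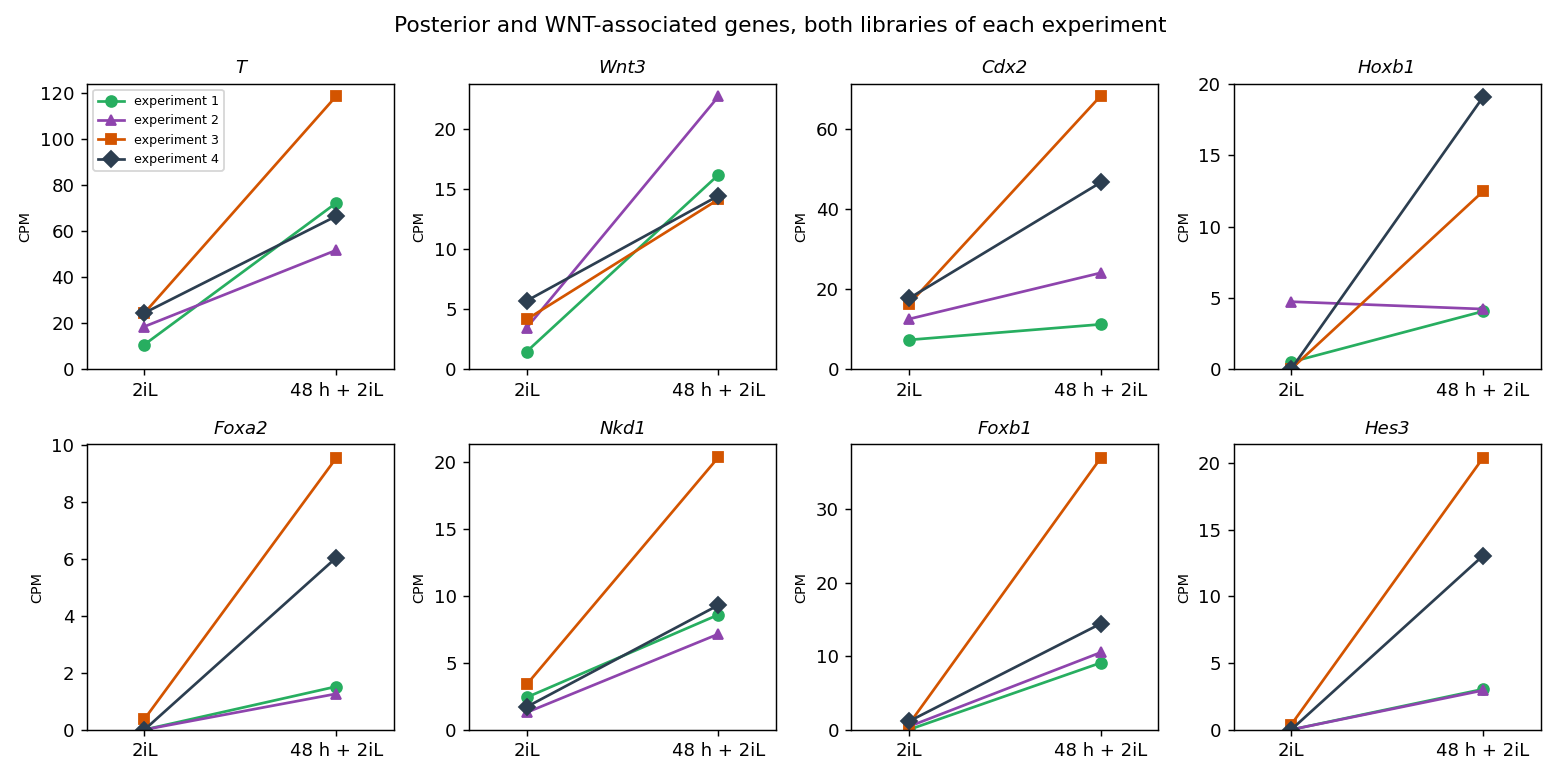
CPM of 8 genes in 2iL and in 48 h + 2iL, with a line joining the 2 libraries of each experiment. Nearly all lines go up; experiment 3 (orange squares) is the highest re-induced library for T, Cdx2, Foxa2, Nkd1, Foxb1 and Hes3, and Hoxb1 is flat in experiment 2 (4.72 and 4.21 CPM).

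Hes3, a neural repressor of the Hes family, had the same order of experiments as Foxa2, at 3.03, 2.94, 20.4 and 13 CPM after the return with 1 count in all 2iL libraries, a ratio of 89.1 (exact 95% interval 15.6 to 3558). In the NODAL pathway, 4 of the 12 members that passed (16 in the list) were higher and 1 lower, with a median of -0.17; without experiment 3 of either group 2 were higher, and without experiment 4 of either group or experiment 3 of 48 h + 2iL 0 were lower. Lefty1, a secreted NODAL antagonist, was at 5.80, 33.1, 13.5 and 39.2 CPM in 2iL, 2.24 ± 1.13 CPM (SD, n = 4) at 48 h and 111, 78.6, 115 and 53.1 CPM after the return. All re-induced libraries were above all 2iL libraries (2.07 ± 0.44, adjusted p = 0.00107). Nodal itself, at 23.2 to 36.2 and 9.97 to 21.7 CPM, was not called (-1.07, adjusted p = 0.0604). In the BMP pathway, 1 of the 11 that passed (16 in the list) was higher and 1 lower, with a median of 0.12. With 18.2% called, near the 14.6% of all genes tested, the count is not read as a result about the pathway. The higher was Bmp7, a ligand, at 3.38, 3.86, 11.3 and 10.2 CPM in 2iL and 12.6, 10.5, 22.4 and 17.7 CPM after the return (1.16 ± 0.38, adjusted p = 0.0354). That call was lost, leaving 0 higher, without experiment 1 or 2 of 2iL, without experiment 1, 3 or 4 of 48 h + 2iL and without the block (adjusted p of 0.0567 to 0.124). The lower was Bmp4, a ligand that supports naive cells, at 40.1, 28.8, 45.5 and 20.4 CPM in 2iL and 14.2, 12.2, 6.65 and 12.6 CPM after the return (-1.58 ± 0.28).

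Of 18 MEK and ERK targets 14 passed, 1 was higher and 3 lower, with a median of -0.14. This is 28.6% called, against 14.6% of all genes tested. Egr1, an immediate early gene, was at 1.45, 186, 38.7 and 30.7 CPM in 2iL and at 1.52, 2.10, 1.25 and 2.79 CPM after the return. The difference of -4.74 ± 0.68 rests on experiments 2 to 4 of 2iL, since experiment 1 was as low in both groups. Fos, also immediate early, was at 1.45, 27.9, 10.9 and 2.84 CPM in 2iL and 1.40 to 2.49 CPM after the return; without experiment 2 of 2iL the adjusted p was 0.222, and it was 0.0513 to 0.0964 without experiment 3 of 2iL or experiment 1 or 2 of 48 h + 2iL. Junb (-1.26) had its highest 2iL library in experiment 2 too, and its adjusted p was 0.16 without that library and 0.0506 and 0.0805 without experiment 1 or 4 of 48 h + 2iL. Dusp4, an ERK phosphatase, was at 0.568 to 1.72 CPM in 2iL, 88.0 ± 35.6 CPM (SD, n = 4) at 48 h and 3.54 to 5.59 CPM after the return. It had thus come down by 4.17 on the log2 scale and remained 2.02 ± 0.62 above 2iL, with an adjusted p of 0.0602 without the block and of 0.0596 to 0.0835 without experiment 1 or 4 of 2iL or experiment 3 or 4 of 48 h + 2iL. In the immediate stress response list, 3 of 13 members that passed (23.1%, against 14.6% of all genes tested) were lower and 0 higher, with a median of -0.21. Fos and Junb are 2 of them, and 1 was lower without experiment 2 or 3 of 2iL or without experiment 1, 2 or 4 of 48 h + 2iL.

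Besides Ly6a, 1 of the 4 Ly6 genes that passed (20 in the list) was lower. Ly6e, a membrane-anchored relative, was at 270, 272, 246 and 306 CPM in 2iL, 173 ± 7.22 CPM (SD, n = 4) at 48 h and 93.0, 82.8, 95.2 and 101 CPM after the return. Its groups are far apart (-1.55 ± 0.17, adjusted p = 5.87e-08), and it fell further on return, by 0.89 (adjusted p = 0.00026). Of 23 interferon response genes 12 passed, 1 was higher and 2 lower, with a median of -0.18. This is 25% called, against 14.6% of all genes tested, and with so few members it is not read as a result about the list. In the list 0 were higher without experiment 3 or 4 of 2iL or experiment 1, 3 or 4 of 48 h + 2iL. The lower were Ifitm2 and Ifitm3, interferon-induced membrane proteins: Ifitm3 was at 474, 480, 622 and 539 CPM in 2iL and 366, 304, 191 and 254 CPM after the return (-0.99 ± 0.25), and Ifitm2 differed by -0.63 ± 0.13.

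Growth cone and neuron genes moved in both directions: 6 of the 17 that passed (19 in the list) were higher and 2 lower, with a median of 0.67, and their summed level was 644 to 694 CPM in 2iL and 825 to 894 CPM after the return. Map2, a dendritic microtubule protein, was at 1.45, 2.15, 4.13 and 2.84 CPM in 2iL, 3.22 ± 2.48 CPM (SD, n = 4) at 48 h and 14.7, 13.5, 19.5 and 15.4 CPM after the return (2.55 ± 0.37 against 2iL and 2.33 against 48 h). Rbfox3 (NeuN), a splicing factor of mature neurons, had 0 counts in 2iL and 16 after the return, at least 5.28-fold higher from 3 counts over the group. Mapt (tau), another microtubule protein, went the other way, at 16.9, 30.5, 10.1 and 31.8 CPM in 2iL and 4.55, 7.15, 3.32 and 4.65 CPM after the return (-2.11 ± 0.47). Nefm, a neurofilament subunit, was at 110, 81.6, 36.8 and 35.8 CPM in 2iL, 3.67 ± 1.01 CPM (SD, n = 4) at 48 h and 21.2 to 28.8 CPM after the return (-1.33 ± 0.29). Of 19 neural progenitor genes 14 passed, 2 were higher and 3 lower; 1 was higher without experiment 1 or 3 of 2iL or experiment 3 or 4 of 48 h + 2iL, and 2 were lower without any 1 library other than experiment 1 of 48 h + 2iL. Their summed level was 178 to 251 CPM in 2iL and 95 to 138 CPM after the return, and the list median was 0.88 as fitted and 0.21 with 5 members at 3 or fewer counts set at the floor of 3, so sum and median differ in direction. Nkx6-2, a homeobox gene, made up much of that sum: 110, 165, 166 and 129 CPM in 2iL, 2.53 ± 1.74 CPM (SD, n = 4) at 48 h and 44.5, 47.9, 53.6 and 36.3 CPM after the return. Meis2, a TALE homeobox gene, was at 30.1 to 39.1 CPM in 2iL and 5.47 to 13.6 CPM after the return (-2.07 ± 0.38).

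Markers of extraembryonic lineages were also mixed. Of 17 primitive endoderm genes 8 passed, 2 were higher and 2 lower, with a median of 0.16, and 4 were at 0 counts in each group. Only 1 was higher without experiment 3 of 48 h + 2iL. The member with the largest rise is also that of the mesendoderm and posterior list, so these counts are not independent. The summed level of the primitive endoderm genes was 684 to 972 CPM in 2iL and 442 to 529 CPM after the return, ranges that do not overlap, so sum and median differ in direction. Lama1 and Lamb1, laminin chains of the basement membrane, moved apart: Lama1 was at 35.7, 31.8, 52.2 and 47.1 CPM in 2iL and 9.10, 5.89, 10.8 and 12.6 CPM after the return (-2.13 ± 0.32), and Lamb1 at 11.6, 12.4, 40.6 and 27.3 CPM and 56.6, 52.1, 115 and 103 CPM (1.82 ± 0.27). Sparc, a matrix glycoprotein that made up most of that sum, was at 769, 855, 845 and 595 CPM in 2iL and 404, 445, 280 and 311 CPM after the return (-1.09 ± 0.15). Of 14 trophoblast genes 8 passed, 1 was higher (Cdx2) and 2 lower, with a median of -1.26 as fitted and -1.14 with members of few counts at the floor. Leaving out 1 library gave 0 or 1 higher and 1 or 2 lower; 0 were higher without experiment 1, 3 or 4 of 2iL or experiment 3 or 4 of 48 h + 2iL, and 1 was lower without experiment 1 of 2iL or experiment 2, 3 or 4 of 48 h + 2iL. The summed level was 99.2 to 169 CPM in 2iL and 106 to 175 CPM after the return. Krt8, a keratin, was at 17.9, 10.3, 2.63 and 1.14 CPM in 2iL and 1.01, 1.26, 0 and 0.465 CPM after the return, so that experiment 4 of 2iL lies inside the re-induced range.

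Imprinted genes, which are expressed from 1 parental allele by inherited DNA methylation, were called higher for 10 of the 22 that passed (28 in the list) and lower for 3, with a median of 0.71, or 0.55 with 2 members of few counts at the floor. Leaving out 1 library gave 8 to 10 higher and 1 to 3 lower. Lower was 1 gene without experiment 1 or 3 of 2iL or without experiment 2, 3 or 4 of 48 h + 2iL, and without the block 7 were higher and 1 lower. Gnas, the stimulatory G protein locus, was at 72.9, 71.7, 65.8 and 53.9 CPM in 2iL and 157, 162, 254 and 221 CPM after the return (1.55 ± 0.15, adjusted p = 1.79e-09). H19, a non-coding RNA, was at 2.90, 7.30, 5.64 and 4.54 CPM in 2iL and 34.9, 31.5, 8.73 and 20 CPM after the return (2.08 ± 0.39), high in experiments 1 and 2 and lowest in experiment 3. Peg3, a zinc finger gene, was at 43.0, 44.2, 78.5 and 60.2 CPM and 103, 104, 137 and 109 CPM (1.00 ± 0.16).

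Peg10, a retrotransposon-derived gene, was at 25.1, 107, 12.4 and 3.97 CPM in 2iL and 93.0, 106, 153 and 125 CPM after the return; in experiment 2 both libraries were alike, and the others moved up (2.01 ± 0.39). Grb10, a growth factor receptor adaptor, was at 3.38 to 6.81 CPM in 2iL and 6.07, 6.31, 32.4 and 25.1 CPM after the return, with the increase mainly in experiments 3 and 4. Nnat, neuronatin, was higher by 1.05 ± 0.26, with an adjusted p of 0.0522 without the block, and Impact by 0.79 ± 0.15. The clear fall was Plagl1 (Zac1), a zinc finger regulator of other imprinted genes, at 69.6, 118, 56.4 and 76.7 CPM in 2iL, 5.27 ± 1.45 CPM (SD, n = 4) at 48 h and 23.8, 21.9, 6.23 and 21.9 CPM after the return (-2.18 ± 0.27, adjusted p = 5.92e-07). Counts were not assigned to alleles, so the number of active copies is not known from them.

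**Figure D5:**
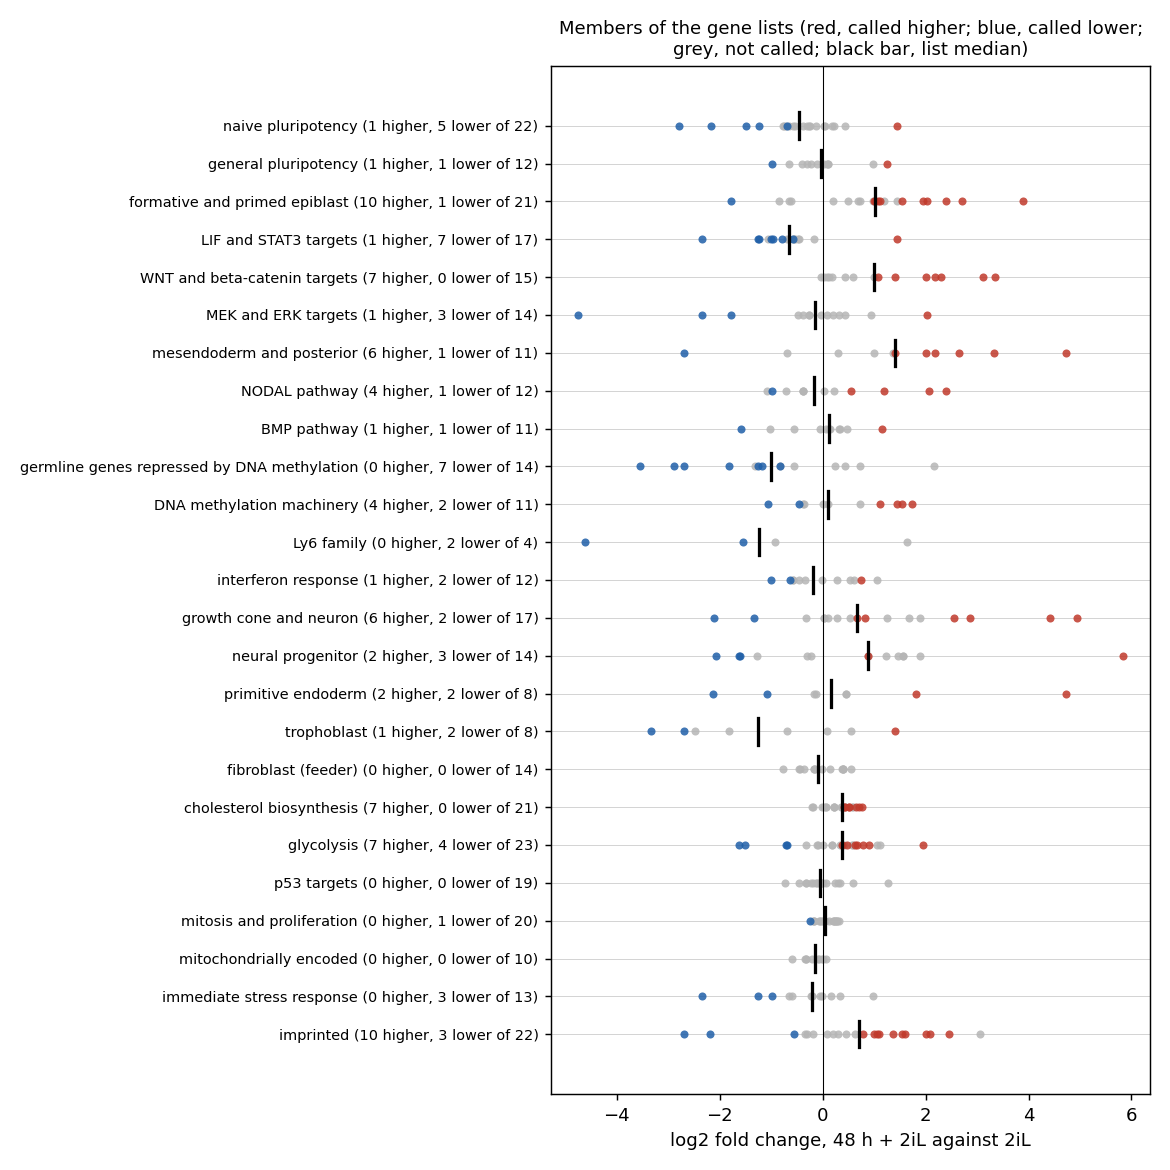
Log2 fold change of 48 h + 2iL against 2iL (horizontal axis) for each tested member of 25 gene lists (rows; the list of two-cell-like genes, with 1 tested member, is left out). Red and blue points are members called higher and lower, grey points were not called, and black bars are list medians; the counts stand beside each list name. Members are nearly all red or grey in the WNT and cholesterol lists and blue or grey in the germline and LIF lists.

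Genes of glycolysis were called on both sides: 7 of 23 were higher and 4 lower, with a median of 0.37. Slc16a3 (MCT4), which exports lactate, was at 8.21, 8.16, 7.89 and 29.5 CPM in 2iL, 291 ± 10.7 CPM (SD, n = 4) at 48 h and 39.9, 52.1, 47.4 and 55.9 CPM after the return (1.95 ± 0.28). Ldha, lactate dehydrogenase, was at 147, 202, 143 and 359 CPM in 2iL and 344, 373, 311 and 380 CPM after the return (0.79 ± 0.14), and experiment 4 of 2iL was already at the re-induced level. Both hexokinases of the list, which start the pathway, were lower, and its phosphofructokinases differed in direction. The hexokinase Hk1 was at 137, 127, 123 and 98.2 CPM in 2iL and 45.5, 47.5, 36.6 and 41.4 CPM after the return (-1.50 ± 0.20), Hk2 differed by -0.70 ± 0.11, and the phosphofructokinase Pfkp was at 124, 124, 121 and 156 CPM and 55.1, 50.9, 22.4 and 45.6 CPM (-1.63 ± 0.22). None of these 3 pairs of groups overlapped. Pfkl, another phosphofructokinase, was higher by 0.90 ± 0.18 (adjusted p = 0.000661), at 38.6, 50.2, 37.2 and 85.7 CPM in 2iL and 102, 68.1, 91.0 and 126 CPM after the return, with experiment 4 of 2iL inside the re-induced range. Pfkm was not called (-0.11, 95% interval -0.65 to 0.44).

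Cholesterol biosynthesis genes were called higher for 7 of 21 that passed and lower for 0, with a median of 0.37 and no member above 0.77. Hmgcs1, the synthase before the rate-limiting step, was at 261, 204, 208 and 204 CPM in 2iL and 270, 250, 396 and 350 CPM after the return (0.51 ± 0.12). Only 2 members were called without experiment 3 of 2iL, 4 without experiment 4 of 2iL, and 3 without experiment 3 of 48 h + 2iL or without the block. Of 19 tested p53 targets and 10 tested mitochondrially encoded genes 0 were called, with medians of -0.04 and -0.15, and of 20 mitosis and proliferation genes 1 was called lower. The proliferation list had a median of 0.04 and ranged from -0.24 to 0.31.

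Families picked after their values were seen, and so without any test as families, show Hox genes on both sides. Of 39 Hox genes 7 passed; Hoxc13, Hoxc4 and Hoxb9 were lower, at -2.31, -2.59 and -2.44 on the log2 scale, with Hoxc13 at 19.8, 20.2, 25.9 and 26.1 CPM in 2iL and 6.57, 4.63, 4.16 and 4.19 CPM after the return, while Hoxb1 was higher. Of 19 Sox genes 11 passed, 3 were higher, 1 lower and 7 not called, with a median of 0.03. The higher genes were Sox3 and, of the SoxC group active in neural and mesenchymal precursors, Sox11 and Sox4. Sox11 was at 44.4, 27.9, 37.6 and 11.9 CPM in 2iL and 118, 87.1, 302 and 194 CPM after the return (2.41 ± 0.28, adjusted p = 1.96e-07). Sox4 was at 21.7 to 30.9 CPM and 75.3 to 153 CPM (1.89 ± 0.17, adjusted p = 1.16e-09). For both, the 48 h level, 221 ± 22.5 and 210 ± 36.2 CPM (SD, n = 4 each), was within or above the range after the return. The lower gene was Sox21, a SoxB2 factor, at 6.76, 8.16, 28.6 and 18.7 CPM in 2iL and 5.06, 3.36, 4.57 and 6.05 CPM after the return (-1.60 ± 0.54, adjusted p = 0.041). Its call was lost, at an adjusted p of 0.0543 to 0.266, without any 1 library other than experiment 1 of 48 h + 2iL, and it was also lost without the block and by DESeq2 (adjusted p of 0.149 and 0.0825).

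Cells given 2iL back after 96 h show how these differences stand in a group with a longer withdrawal. That group was also collected later, so length of withdrawal and time in culture cannot be told apart. Between 96 h + 2iL and 48 h + 2iL, 3009 of 11080 genes (27.2%) were called, 1556 higher and 1453 lower after the longer withdrawal. Of the naive pluripotency list 20 of 22 were called, all 20 lower. Klf4 was at 36.8 CPM and Nanog at 34.9 CPM on average in 96 h + 2iL, with log2 differences from 48 h + 2iL of -2.14 and -1.75. Of 17 growth cone and neuron genes 9 were higher and 1 lower, and of 14 neural progenitor genes 11 were higher and 1 lower. Gap43 was higher by a further 1.03 ± 0.28 (adjusted p = 0.00612), Foxb1 by 2.81, Zfp423 by 2.66 and Nkd1 by 3.61. Dazl was lower still, at -1.68 ± 0.62 (adjusted p = 0.042), as were Tuba3a (-2.68) and Fetub (-3.82). Ly6a, at 2.86 CPM, did not differ between the re-induced groups at this threshold (-0.61 ± 0.47, adjusted p = 0.366). T, Wnt3 and Lefty1 did not pass the test between them either (-0.49, -0.69 and -0.56). Dnmt3a was at 85.8 CPM after 96 h and 90.4 CPM after 48 h, a difference of -0.08 ± 0.21.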

How the data were processed

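Polyadenylated RNA was measured by 3′ digital gene expression sequencing, per the labels. Per the submitters' processing notes, the authors used bcl2fastq, STAR 2.6.0a, HTSeq and the mm10 build; the roles of the tools are not given in the sources used here. The authors deposited raw counts per gene for 31053 genes in each library and 1 table of CPM for 30386 genes, which equalled the scaled counts in 28 of 28 columns (tolerance 1e-06) and was used only for that check. Reads without a gene were 6.96% to 8.29% in the 8 libraries and stayed out of library sizes.

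The filterByExpr function of edgeR, given the groups and its defaults (10 counts, total of 15), kept 11080 genes. A gene could pass on its counts in any of the 7 groups. List members with almost no counts in 2iL could therefore be called higher but hardly lower. After TMM scaling, a quasi-likelihood model with group means and the experiment number as a block was fitted to all 28 libraries (edgeR 4.0.16, R 4.3.3), with two-sided tests and Benjamini-Hochberg adjustment over all genes. The standard error is the change divided by the square root of its F statistic. The block is the experiment number carried by the titles. On simulated counts for 48 h + 2iL against 2iL (10935 genes, 200 changed), the fit recovered 89% of 4-fold and 54% of 2-fold changes, with 5 false among 148 calls. The simulated counts held no experiment effect. The changed genes were drawn above a minimum level in 2iL, so these shares do not cover genes with almost no counts there. No pair of libraries was identical, and replicate pairs (12 in all) had a chi-square per gene of 3.06 to 8.96.

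Named genes are the 15 largest rises and 15 largest falls with an adjusted p under 0.05, at least 10 CPM on average in whichever group is higher, and no overlap, passing over Gm, mt- and Rik symbols and pseudogenes; members of the gene lists were named as well. A gene among the largest rises is not reported here. The genes, lists and comparisons were chosen with earlier results of these data known. For genes with 3 or fewer counts in a group, ratios of pooled counts with exact conditional 95% intervals, or bounds from 3 counts, replace fitted changes. They pool the libraries of a group and leave out the spread between libraries, so they are too narrow as statements about the condition. Alternatives were no block, only the 8 libraries, DESeq2 1.42.0 and its size factors, library totals, other filters and leaving out each library. Positions and promoters are from GENCODE M21 and RefSeq on GRCm38.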

Additional observations from a re-analysis of the deposited data

Results flagged for a closer look

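In groups of 4 libraries, a value was singled out where its gap to the nearest other library took more than Dixon's critical share of the group's range. Of 254 groups examined, 24 held such a value, and chance gives about 1 in 20. The mitochondrial share in 2iL stood apart in experiment 3, at 2.76%. Among genes in 2iL, the library standing apart was experiment 1 for Hmgcs1 (261 CPM); experiment 2 for Casq2 (27 CPM), Tet3 (6.87 CPM) and Hoxb1 (4.72 CPM); experiment 3 for Uhrf2 (35.3 CPM), Fgf8 (0.751 CPM), Foxa2 (0.376 CPM) and Hes3 (0.376 CPM); and experiment 4 for Rhox2a (22.1 CPM), Stk31 (3.97 CPM), Tcl1 (186 CPM), Slc16a3 (29.5 CPM) and Pfkp (156 CPM). The Fgf8, Foxa2 and Hes3 values rest on 1 or 2 counts with 0 in the other libraries.

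In 48 h + 2iL, experiment 3 stood apart for Vrtn (47.0 CPM), Uhrf2 (72.7 CPM), Car14 (9.97 CPM), Nkd1 (20.4 CPM), Plagl1 (6.23 CPM) and Hoxc4 (5.40 CPM), Plagl1 being the lowest of its group and the others the highest. Experiment 1 stood apart for Pramel6 (1.52 CPM) and Esrrb (191 CPM), and experiment 2 for Dazl (0.841 CPM) and Stk31 (11.4 CPM). Their causes were not tested.

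The direct test between the re-induced groups called 13 of the 30 named genes (edgeR's quasi-likelihood test), against 27.2% of all genes tested. These 30 were chosen on the values of 48 h + 2iL, which is also a side of this test, so the count is not a result about them. As log2 fold changes of 96 h + 2iL against 48 h + 2iL, the higher genes were Foxb1 (2.81), Zfp423 (2.66), Aif1l (2.03), Greb1 (1.85), Gap43 (1.03), Ephb2 (0.91) and Fam171a1 (0.74). The lower genes were Rhox2a (-4.41), Fetub (-3.82), Tuba3a (-2.68), Pllp (-2.36), Calr4 (-1.88) and Dazl (-1.68).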

How the results depend on the processing

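Without the replicate block, 680 genes were higher and 608 lower in 48 h + 2iL than in 2iL, and 1429 higher and 1243 lower in 96 h + 2iL than in 48 h + 2iL. Deviations of libraries with the same experiment number correlated at 0.102, 0.0914, 0.111 and 0.0347 for experiments 1 to 4. Across the other settings the counts against 2iL were 783 to 918 higher and 724 to 913 lower. Leaving out 1 library gave 571 to 790 higher and 532 to 715 lower, and 1301 to 1500 higher and 1046 to 1417 lower between the re-induced groups; 571 was without experiment 3 of 48 h + 2iL. The difference in mitochondrial share was -0.425 to -0.213 points without 1 library. Of 108 called genes named here, 84 kept the call under every setting, 20 lost it without 1 library, 15 under another setting, and 0 reversed. Of 16 uncalled genes 9 gained a call under some setting. Dnmt1, at 0.01 on the log2 scale, reversed to -0.000576 without the block, -0.00434 with DESeq2 size factors, -0.00528 with the stricter filter and -0.0055 by DESeq2, and ranged from -0.0673 to 0.0707 without 1 library. Depth limits genes with 3 or fewer counts in a group, for which only ratios with wide intervals or bounds were given.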
